A study of Mus musculus with 6 samples.

Results

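The genes described here are 7 genes of adrenergic and calcium signalling in astrocytes: *Adra1a*, *Adra1b*, *Adra2a*, *Adrb1*, *P2ry1*, *Ednrb* and *Itpr2*. Their members are the ATAC-seq peaks whose summit lies in the gene or within 50 kb of it. Such peaks numbered 1202 of 1116429 in 6 peak lists, or 0.108%, and they gathered into 163 of 160877 consensus sites, or 0.101%. A consensus site is a 401 bp window centred on a summit, with a summit in at least 2 libraries.

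ATAC-seq maps open chromatin by letting the Tn5 transposase insert sequencing adapters into accessible DNA. All mice were *GR fl/fl*, with loxP sites flanking part of the glucocorticoid receptor (GR) gene in every cell, and the nuclei came from primary visual cortex (V1) at P21. As newborns the mice had received an AAV2/5 vector in which GfaABC1D drives a recombinase and a nuclear-envelope EGFP-KASH, with the 4x6T element, and the recombinase was an inactive ΔCre in GR-con and an active Cre in GR-KO. The GfaABC1D promoter restricts expression mostly to astrocytes, nuclei were sorted by GFP and DRAQ5, a DNA dye, and each of the 3 libraries per condition pooled several animals. The question put to these loci was whether loss of GR changed which sites were open, or how strongly.

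The receptors in this group sense noradrenaline, purine nucleotides and endothelin. α1-adrenergic and P2Y1 receptors couple through Gq to phospholipase C, which makes inositol trisphosphate, and this messenger opens the receptor channel encoded by *Itpr2* to release calcium from the endoplasmic reticulum. α2 receptors act through Gi and β1 receptors through Gs, which lower and raise cyclic AMP. GR is a nuclear receptor that enters the nucleus on binding glucocorticoid and recognises a palindrome of 2 half-sites in DNA.

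The sequences of the 3 sites whose accessibility passed the test are shown first, with that of the strongest site found in GR-con libraries only. Each is the central 201 bp, on the plus strand of GRCm38.p6 (mm10), as read from the RefSeq genome. Capitals mark matches on either strand to the GR palindrome (GNACA, 3 bases of any kind, TGTNC), the GR half-site AGAACA, the NFI half-site TTGGCA, the AP-1 motif TGANTCA or the LIM-homeobox motif TAATTA.
*Itpr2* intron, lower in GR-KO, chr6:146352467-146352667: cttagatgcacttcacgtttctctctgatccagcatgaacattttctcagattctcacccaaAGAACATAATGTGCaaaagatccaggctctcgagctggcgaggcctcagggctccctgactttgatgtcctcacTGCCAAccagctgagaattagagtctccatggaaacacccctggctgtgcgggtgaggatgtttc
*Ednrb* downstream, higher in GR-KO, chr14:103778696-103778896: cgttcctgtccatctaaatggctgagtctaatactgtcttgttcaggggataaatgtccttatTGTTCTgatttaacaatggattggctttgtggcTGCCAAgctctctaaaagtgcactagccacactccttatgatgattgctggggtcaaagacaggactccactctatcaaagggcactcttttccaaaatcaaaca
*Adra1b* intron, higher in GR-KO, chr11:43848122-43848322: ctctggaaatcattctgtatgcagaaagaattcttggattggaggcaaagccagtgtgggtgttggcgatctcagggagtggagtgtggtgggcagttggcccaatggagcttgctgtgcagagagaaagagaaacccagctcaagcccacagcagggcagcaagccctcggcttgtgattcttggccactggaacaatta
*Itpr2* intron, peak in GR-con only, chr6:146314328-146314528: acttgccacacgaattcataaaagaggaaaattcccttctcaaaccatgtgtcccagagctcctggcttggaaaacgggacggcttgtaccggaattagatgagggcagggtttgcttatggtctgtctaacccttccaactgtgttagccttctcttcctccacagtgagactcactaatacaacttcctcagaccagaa
In the *Itpr2* site lower in GR-KO, the capitals AGAACATAATGTGC hold the GR palindrome and, overlapping it, a GR half-site, while TGCCAA is the NFI half-site on the other strand. The *Ednrb* site held a GR half-site and an NFI half-site, and the window of the *Adra1b* site held none of the 5 motifs.

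The 6 lists held 179462 to 198929 peaks each. Promoter peaks were listed in all 6 libraries for 10 of 10 astrocyte marker genes and for 6 of 8 neuronal ones, and promoter sites were found for 3 of 6 oligodendrocyte and 2 of 6 microglial markers. The mean percentile of the astrocyte marker promoters, by fold enrichment within each list, was 65.4 to 67.4 in GR-con and 68.1 to 70.2 in GR-KO libraries, without overlap. For neuronal markers it was 61.5 to 68.3 and 57.9 to 63.4, for oligodendrocyte markers 19.3 to 20.8 and 15.7 to 21.4, for oligodendrocyte precursor markers 59.6 to 60.3 and 59.2 to 60.4, for microglial markers 17.3 to 24.2 and 22.1 to 25.8, and for endothelial and mural markers 36.1 to 43.6 and 36.9 to 40.8. The neuronal marker *Slc17a7*, the precursor marker *Neu4*, the endothelial markers *Pecam1* and *Tek*, the oligodendrocyte markers *Mog*, *Mag* and *Sox10* and the microglial markers *Cx3cr1*, *Csf1r*, *C1qa* and *Aif1* had no promoter site. These genes entered the means as 0, so a low mean partly reflects absent sites rather than weak peaks. The part of cell composition in the results below was not tested, and the peak lists give no reads over the deleted part of the GR gene, so the deletion was not checked here.

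Few sites at these loci passed the test between GR-KO and GR-con. By the ranks of −log10 p, 3 of the 163 sites passed an adjusted p of 0.05 in limma, 1 lower in GR-KO (an *Itpr2* intron) and 2 higher (downstream of *Ednrb* and in an *Adra1b* intron). That is 1.84% of the sites, beside 1.6% of all 160877 sites. For sites lower in GR-KO the share was 0.613% beside 0.835%, and for sites higher in GR-KO it was 1.23% beside 0.76%. By the ranks of fold enrichment, 0 of 163 sites passed in limma, where 0.188% of all sites did (0.127% lower and 0.0609% higher). An unadjusted p under 0.05 by fold was reached at 24 of the 163 sites, which is 14.7% and compares with 12.1% of all. Both measures describe a peak's summit: the fold enrichment is the read pileup over the local background, and −log10 p is the peak caller's test of that pileup, which also grows with the number of reads. Each was ranked within its library and converted to a normal score, so a difference of 1 is 1 SD of the sites of a library.

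The 163 sites were 20 promoter sites, within 1 kb of a protein-coding start, 80 intronic, 5 exonic, 18 upstream and 40 downstream sites, and 107 of them (65.6%, beside 62% of all sites) had a peak in all 6 libraries. Their median score difference, GR-KO minus GR-con, was 0.02 by fold, the same as over all sites at 0.02, and 0.01 by −log10 p, beside 0.01 over all sites. By rank of fold, all GR-KO libraries stood below all GR-con libraries at 11 sites, or 6.75% beside 7.57% of all sites, and above them at 22 sites, or 13.5% beside 11.6%. By −log10 p these were 7 sites, or 4.29% beside 8.45%, and 18 sites, or 11% beside 11%. The maps of the loci show the mean fold of every site.

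**Figure D1:**
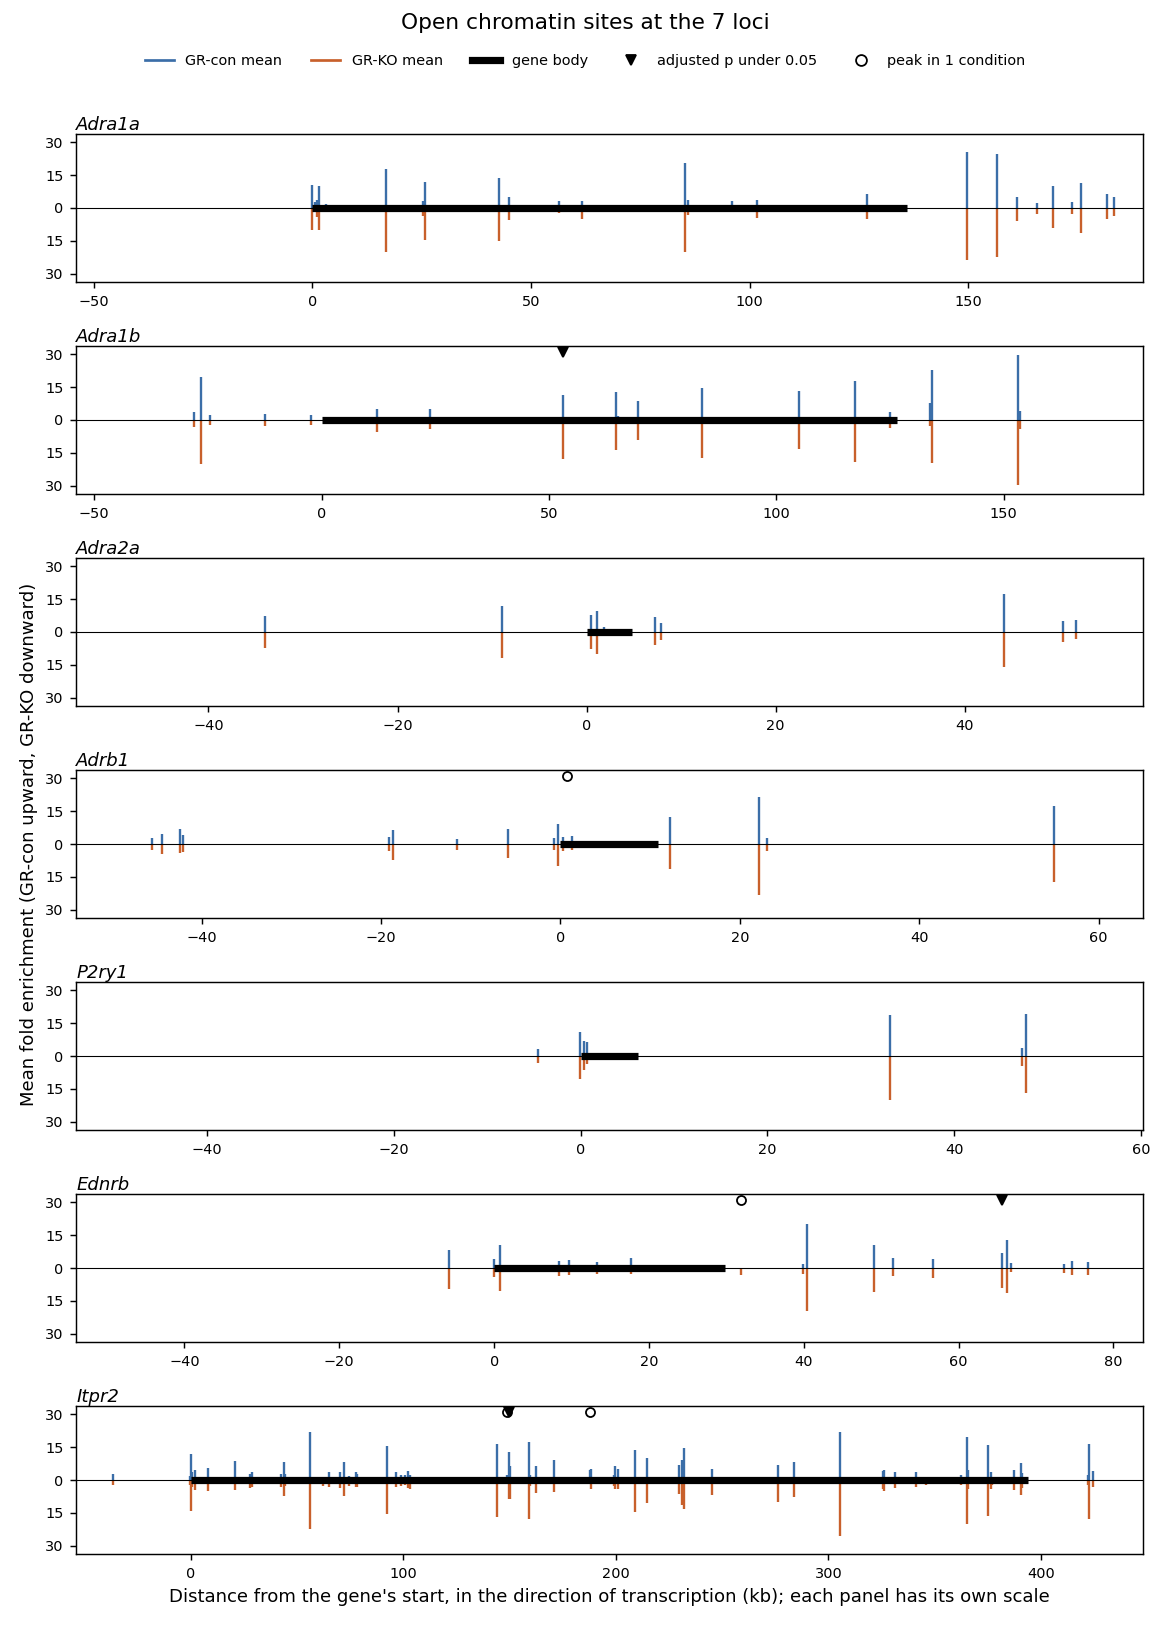
Mean fold enrichment of the 163 sites of the 7 loci against distance from the gene's start in kb, GR-con upward in blue and GR-KO downward in orange, averaged over the libraries with a peak. The upward and downward lines mirror each other at most sites, and the triangles and circles mark the 3 sites past the threshold and the 4 with a peak in 1 condition.

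**Figure D2:**
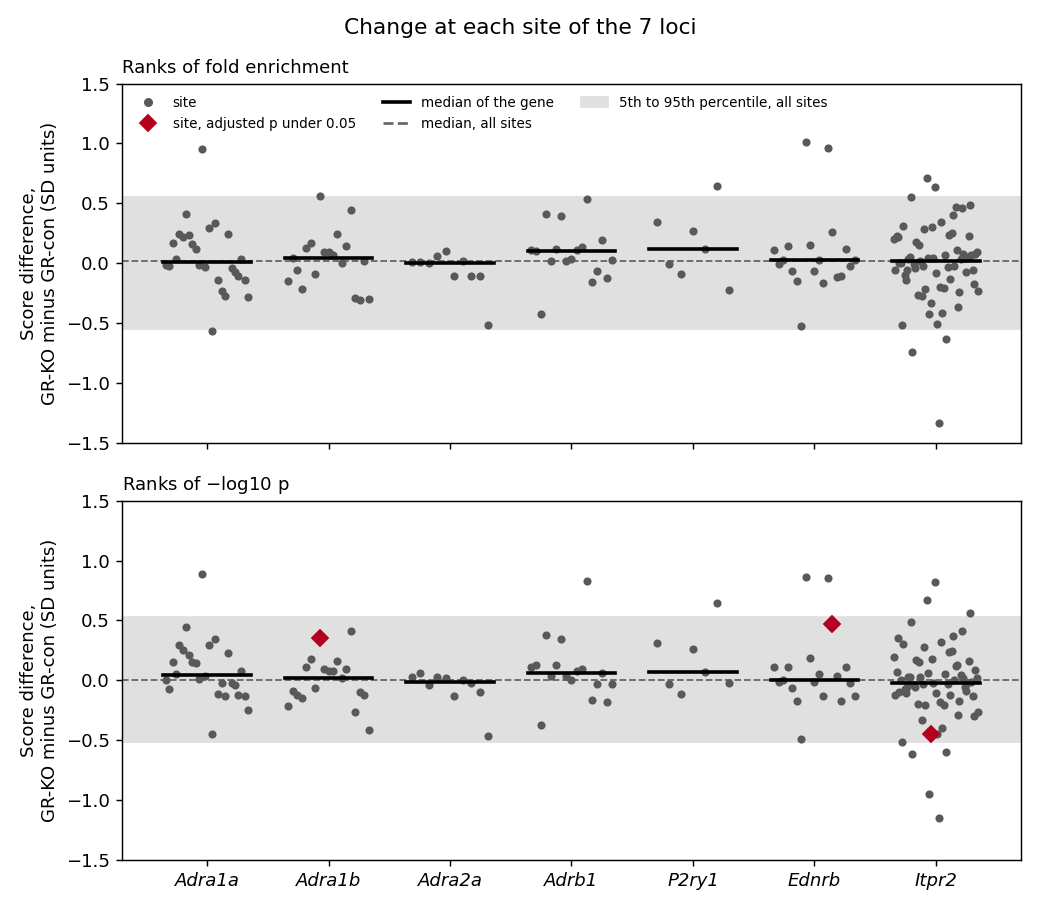
Score difference of each site (GR-KO minus GR-con, in SD of a library's scores) by gene, for ranks of fold enrichment above and of −log10 p below, with the 5th to 95th percentile of all sites shaded. The 7 medians lie between -0.02 and 0.12, beside the dashed median of all sites, and the 3 red diamonds are the sites past the threshold.

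*Adra1a* encodes the α1A-adrenergic receptor and lies on the plus strand of chromosome 14, from 66635251 to 66771168. Its locus held 26 sites, with mean folds between 1.98 and 24.9, and none passed the test. The promoter site, 15 bp into the gene, had folds, in the order of the library numbers, of 9.89, 12.1 and 9.98 in GR-con against 10.2, 10.4 and 9.88 in GR-KO. The groups overlapped, and GR-con 2 was the highest.

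An intronic site 16837 bp from the start of *Adra1a* (66651888 to 66652288) came nearest to the threshold at that locus. Its −log10 p was 196, 282 and 268 in GR-con and 340, 318 and 341 in GR-KO libraries, without overlap. The score difference was 0.26 ± 0.07 (standard error), with adjusted p = 0.0846 from limma. It passed in 1 of 15 alternatives, among sites with a peak in all 6 libraries (0.286, adjusted p = 0.033). The adjusted p over the alternatives ran from 0.033 to 0.404, and the direction was the same in all 15. By fold the groups overlapped, at 15.8, 20.0 and 17.3 in GR-con and 19.9, 19.3 and 20.7 in GR-KO. The GR palindrome was found in this site, outside its central 201 bp, and AP-1 and NFI motifs within them.

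Downstream of *Adra1a*, a pair of strong sites stood within *Gm10032*, a gene annotated there. The strongest of the locus, 13.9 kb past the gene, had folds of 28.7, 22.6 and 25.9 in GR-con and 23.7, 23.6 and 24.7 in GR-KO, so GR-KO lay inside the GR-con range. The other, 20.8 kb past the gene, had folds of 24.8, 25.2 and 24.2 in GR-con and 22.4, 23.1 and 21.6 in GR-KO. There the groups did not overlap, with a difference of -0.28 ± 0.09 (standard error) and adjusted p = 0.252 from limma.

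*Adra1b* encodes the α1B-adrenergic receptor and lies on the minus strand of chromosome 11, from 43774606 to 43901210. The intronic site 52988 bp from its start (43848022 to 43848422) was 1 of the 2 sites higher in GR-KO. Its −log10 p was 47.0, 45.7 and 53.8 in GR-con and 86.2, 108 and 77.4 in GR-KO libraries. Its folds were 11.5, 11.3 and 11.8 in GR-con and 17.0, 20.4 and 16.1 in GR-KO, so every GR-KO library lay above every GR-con library on both measures.

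The score of this *Adra1b* site rose by 0.35 ± 0.07 (standard error) by −log10 p, with adjusted p = 0.0137 from limma. By fold the difference was 0.56 ± 0.10, with adjusted p = 0.0807. The call did not hold in most alternatives. The adjusted p by −log10 p stayed under 0.05 in 6 of 15 alternative settings, with a range of 0.00426 to 0.183, and was 0.129, 0.123, 0.0638, 0.0624 and 0.12 without GR-con 1, GR-con 2, GR-con 3, GR-KO 1 and GR-KO 2. The direction was the same in all 15.

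The remaining 18 sites at *Adra1b* did not pass by either measure. The promoter site used here lies 64651 bp from the outermost start, at an inner protein-coding start. Its folds were 13.1, 13.6 and 11.8 in GR-con and 14.1, 13.2 and 13.9 in GR-KO, which overlapped as folds but not as ranks (adjusted p = 0.566 from limma). The strongest of all 163 sites stood 26.6 kb downstream at the promoter of *Ttc1*, a different gene, with folds of 30.6, 29.6 and 28.6 in GR-con and 30.1, 29.3 and 29.2 in GR-KO, and its groups overlapped.

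*Adra2a*, the α2A-adrenergic receptor gene on chromosome 19 (54044151 to 54048982, plus strand), had 10 sites, each with a peak in all 6 libraries. None passed the test, and by rank the conditions overlapped at every site on both measures. The promoter site had folds of 9.20, 10.98 and 8.42 in GR-con and 9.50, 10.01 and 10.03 in GR-KO. The strongest, 39.4 kb downstream, had 16.3, 18.1 and 18.1 against 15.9, 14.4 and 17.98. GR-KO 3 lay above GR-con 1, so the groups overlapped. The site of smallest p, 46.9 kb downstream, had folds of 5.29, 4.14 and 7.27 in GR-con and 3.43, 2.46 and 3.93 in GR-KO. All 3 GR-KO values were below the GR-con values by fold, but not by rank among the sites, and the score difference of -0.52 ± 0.21 (standard error) had adjusted p = 0.390 from limma.

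*Adrb1* encodes the β1-adrenergic receptor in a single coding exon on the plus strand of chromosome 19, from 56722199 to 56733113. Of its 17 sites, 4 had a score difference below 0 by fold, or 23.5%, beside 46.7% of all sites. This was the lowest share of the 7 genes, the others ran from 36.8% to 50%, and over the 163 sites it was 43.6%. The share was not tested. The promoter site had folds of 10.8, 9.42 and 7.86 in GR-con and 11, 10.1 and 9.56 in GR-KO, which overlapped. The strongest site, 11.3 kb downstream within the annotated gene *AC158549.1*, had folds of 22.7, 21.7 and 20.6 in GR-con and 23.6, 23.6 and 22.9 in GR-KO. There every GR-KO value was higher, by a score of 0.19 ± 0.08 (standard error), with adjusted p = 0.383 from limma.

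In the coding exon of *Adrb1*, 784 bp from the start, a peak was listed in every GR-KO and in no GR-con library. It was weak, with folds of 1.86, 2.00 and 1.98, and stood near the bottom of each list, at a mean percentile of 1.91. The adjusted p was 0.197 by −log10 p and 0.378 by fold in limma, in which an absent peak takes the lowest rank of its library. The score difference was 0.54 by fold and 0.83 by −log10 p. The GR-con arm thus has no spread of its own, and the test restates the presence of the peak. The difference turned negative when any overlap counted as a peak (-0.679 by fold). Upstream, 42.5 kb from the gene, folds were 7.37, 8.28 and 5.58 in GR-con and 3.79, 5.49 and 3.72 in GR-KO. The groups did not overlap, and the score difference was -0.43 ± 0.15 (standard error) with adjusted p = 0.288.

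*P2ry1* encodes the P2Y1 receptor for ADP on the plus strand of chromosome 3, from 61002795 to 61008982, and its 7 sites were the fewest. Its promoter site had folds of 12.3, 10.8 and 9.22 in GR-con and 11.8, 11.6 and 7.97 in GR-KO, and GR-KO 3 was the lowest. The strongest site, 27.0 kb downstream, varied as much within conditions as between them, at 22.0, 20.6 and 14.2 in GR-con and 17.95, 19.4 and 22.7 in GR-KO. At 41.5 kb downstream, the site of smallest p by fold, folds were 21.6, 19.4 and 17.3 in GR-con and 19.3, 15.5 and 16.0 in GR-KO, with adjusted p = 0.444 from limma. By rank the conditions overlapped at each of the 7 sites, and the smallest adjusted p was 0.356, at a site 41.1 kb downstream that had no peak in GR-con 2.

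*Ednrb* encodes the endothelin B receptor on the minus strand of chromosome 14, from 103814625 to 103844402. The site past the threshold at this locus lies 35.8 kb downstream of the gene (103778596 to 103778996), and it overlaps no other annotated gene. Its −log10 p was 118, 116 and 104 in GR-con and 258, 212 and 206 in GR-KO libraries. Folds were 7.12, 7.17 and 6.67 in GR-con and 9.95, 8.57 and 8.83 in GR-KO, so the groups stood apart on both measures.

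By −log10 p the score of this *Ednrb* site rose by 0.47 ± 0.06 (standard error), with adjusted p = 0.000203 from limma, and by fold the difference was 0.26 ± 0.08, with adjusted p = 0.210. The site shares with another summit an accessible stretch that the lists give as 1 interval of 1405 to 1752 bp, and its own summits were spread over 161 bp. A stronger summit in the same stretch, 66293 bp from the gene's start, had −log10 p values of 332, 311 and 277 in GR-con and 338, 320 and 293 in GR-KO, with adjusted p = 0.890, while its folds, 13.4, 13.1 and 12 against 11.7, 10.99 and 10.9, were lower in each GR-KO library (adjusted p = 0.475). When the strongest peak with over 200 bp in the site, or with any overlap, stood for a library, the difference at the *Ednrb* site was 0.0446 and 0.0367 by −log10 p, with adjusted p = 0.784 and 0.836, and turned to -0.128 and -0.123 by fold. Over 15 alternatives the adjusted p by −log10 p ran from 5.03e-06 to 0.836, under 0.05 in 12, and it was under 0.05 without any single library. The third setting that ended the call was the fit without the variance trend (0.0742).

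The other 18 sites at *Ednrb* did not pass. The promoter site, 705 bp into the gene, had folds of 10.9, 10.7 and 9.40 in GR-con and 11.6, 8.58 and 10.8 in GR-KO. The strongest, 10.6 kb downstream, had 22.1, 21.7 and 17.3 in GR-con and 21.1, 19.1 and 18.7 in GR-KO. Both pairs of ranges overlapped. A peak 2.09 kb past the gene was listed in every GR-KO library, with folds of 3.25, 3.79 and 2.62, and in no GR-con library, and its adjusted p was 0.135 by fold and 0.185 by −log10 p in limma.

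*Itpr2*, the gene of the type 2 inositol trisphosphate receptor, spans 146108299 to 146502223 on the minus strand of chromosome 6 and held 65 of the 163 sites, 56 of them intronic. The site that passed the test there, 149656 bp into the gene (146352367 to 146352767), was the only site lower in GR-KO among the 3, and it carries the GR palindrome shown above. Its −log10 p was 200, 156 and 143 in GR-con and 86.3, 62.3 and 63.6 in GR-KO libraries. Its folds were 14.1, 12.6 and 11.3 in GR-con and 9.66, 8.14 and 7.99 in GR-KO, and the lowest GR-con library was above the highest GR-KO library on both measures.

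The score of this *Itpr2* site fell by 0.45 ± 0.07 (standard error) by −log10 p, with adjusted p = 0.00149 from limma. By fold the difference was -0.34 ± 0.08, with adjusted p = 0.130. The direction was kept in all 15 alternatives and the adjusted p by −log10 p was under 0.05 in 11, with a range of 5.2e-05 to 0.149. It was 0.0721 without GR-con 1, 0.0672 without GR-con 2 and 0.149 without the variance trend. When the strongest peak with over 200 bp in the site stood for a library it was 0.0938, and with any overlap it was 0.0476.

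Both sites with a peak in GR-con libraries only were introns of *Itpr2*. Sites with a peak in every library of 1 condition and none of the other numbered 4, or 2.45% beside 1.77% of all sites. Those in GR-con only made up 1.23%, beside 1.15% of all sites, and sites with a peak in GR-KO only, at *Adrb1* and *Ednrb*, made up 1.23% beside 0.618%. The stronger, 187795 bp into the gene, had folds of 4.35, 4.70 and 5.07 in GR-con, at a mean percentile of 49.8, and no listed peak in any GR-KO library. Its score difference was -1.34 ± 0.21 (standard error) by fold, with adjusted p = 0.0612, and -1.15 ± 0.30 by −log10 p, with adjusted p = 0.0601 from limma. As at the other sites with a peak in 1 condition, these values restate the presence of the peak, because the 3 libraries without one share an imputed rank and have no spread of their own. The weaker, 148541 bp into the gene and near the site that fell, had folds of 2.23, 2.03 and 2.24 in GR-con. Its score difference was -0.42 ± 0.22 (standard error) by fold, with adjusted p = 0.463, and -0.95 ± 0.30 by −log10 p, with adjusted p = 0.137 from limma. Each of the 4 sites with a peak in 1 condition passed in 1 to 3 alternatives by each measure, which for the same reason is no independent support.

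**Figure D3:**
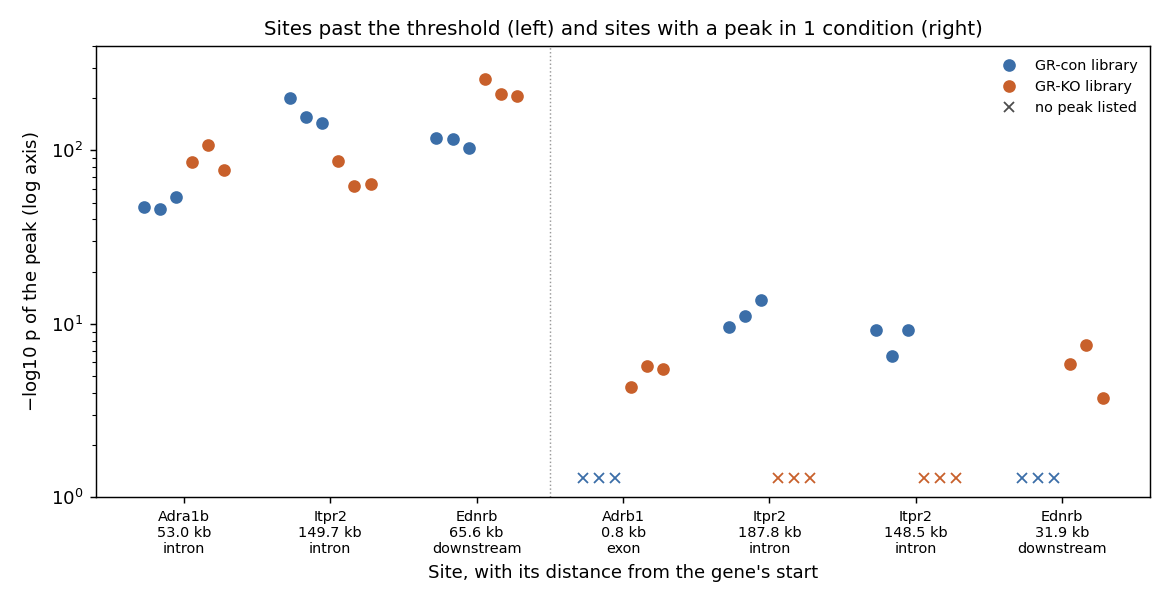
−log10 p of the peak in each library, on a log axis, for the 3 sites past the threshold (left of the dotted line) and the 4 sites with a peak in 1 condition (right), with crosses where no peak was listed. The *Adra1b* and *Ednrb* sites are higher in all GR-KO libraries, the first *Itpr2* site is lower in all of them, and the 4 sites on the right stay under a −log10 p of 13.8.

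The difference at the *Itpr2* promoter had the opposite sign and did not pass the test. Its folds were 10.9, 13.4 and 11.5 in GR-con and 15.6, 13.7 and 13.8 in GR-KO, so the groups did not overlap by fold, but by −log10 p they did. The score difference was 0.22 ± 0.08 (standard error) by fold, with adjusted p = 0.297 from limma. The strongest site of the gene, 305402 bp from the start, has its centre in an intron 31 bp from an exon, so the site includes exon sequence. It had folds of 23.3, 22.2 and 19.8 in GR-con and 26.3, 26.0 and 24.6 in GR-KO. Each GR-KO fold exceeded each GR-con fold, by a score of 0.47 ± 0.10 and adjusted p = 0.114.

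The 7 promoter sites described above are the highest-ranked of each gene. None of these or of the 7 strongest sites passed the test by either measure, and none did in any of the 15 alternatives in which they were fitted. The *Adrb1* exon site also lies within 1 kb of a start, and it passed in 2 alternatives by −log10 p and 1 by fold. The 7 promoter sites stood within a narrow range, with mean percentiles by fold from 75.4 (*Adrb1*) to 84.4 (*Adra1b*) in GR-con. Across 6 libraries, the promoter scores of *Adra1b* and *Itpr2* lay nearest to those of *Orai1*, a store-operated calcium channel, at Euclidean distances of 0.105 and 0.260 among 66 genes compared. Those of *Adra2a*, *Adrb1* and *Ednrb* lay nearest to *Gnas*, the Gs α subunit, at 0.175, 0.213 and 0.217, *Adra1a* to *P2ry2* at 0.147, and *P2ry1* to *Atp2b1* at 0.301, while the median distance to the 66 genes was 0.874 to 1.01. The distance compares the level of 2 promoters in each library, so near genes have similar ranks, and a shared function was not tested.

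**Figure D4:**
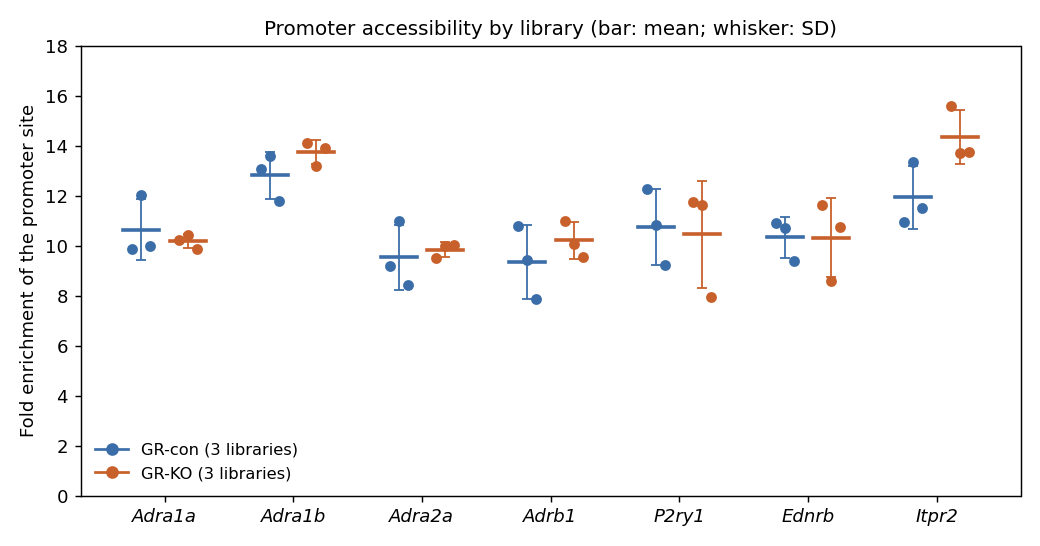
Fold enrichment of the promoter site of each gene, with 1 point per library, the mean as a bar and the SD as a whisker (n = 3 per condition). The blue GR-con and orange GR-KO points overlap for every gene except *Itpr2*, where the GR-KO libraries lie above.

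The number of peaks per locus did not separate the conditions at 6 of the 7 genes. *Itpr2* had 69, 75 and 74 peaks in GR-con and 70, 67 and 74 in GR-KO libraries, and *Adra1a* had 34, 36 and 30 against 31, 33 and 33. At *P2ry1* there were 6, 5 and 7 peaks in GR-con and 9, 8 and 8 in GR-KO. This is a difference without overlap, with p = 0.1 in the two-sided exact permutation test, the smallest that 3 against 3 libraries can give, and 0.7 after adjustment over 7 genes. The mean difference of 2.33 peaks was 1.67 (exact p = 0.2) within 10 kb of the gene or with a q-value limit of 0.01, and 0.333 (exact p = 1.0) in the gene body. With equal list lengths it stayed at 2.33 (exact p = 0.1). For the other genes the exact p was 0.2 to 0.8. At *Adrb1* the exact p was 0.2, but it was 0.1 with equal list lengths (difference of 3.0) and within 10 kb of the gene (1.67). Over all loci the lists held 193, 205 and 200 peaks in GR-con and 194, 209 and 201 in GR-KO.

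**Figure D5:**
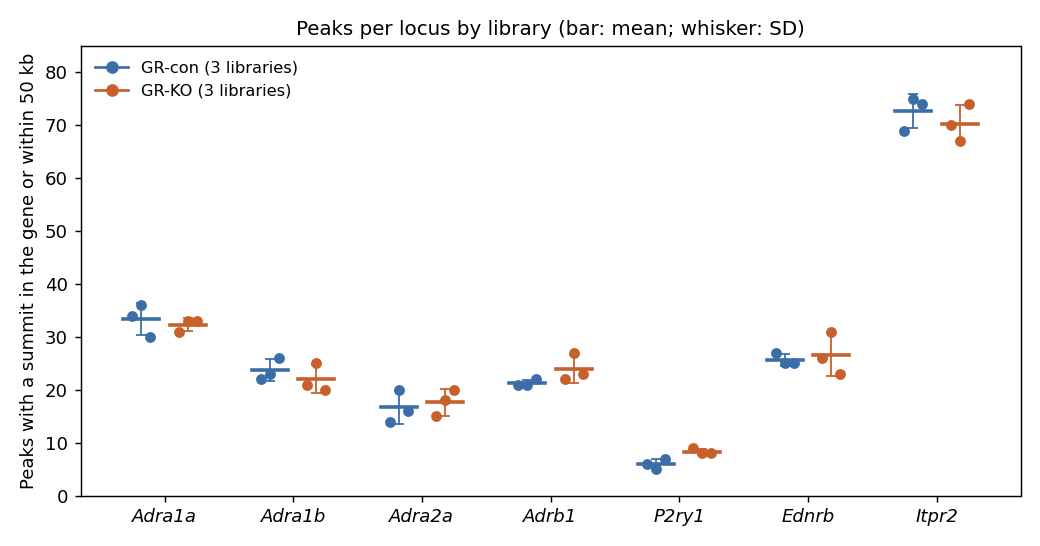
Number of peaks with a summit in the gene or within 50 kb of it, 1 point per library, with the mean as a bar and the SD as a whisker (n = 3 per condition). The conditions overlap at all genes but *P2ry1*, where GR-KO libraries have 8 or 9 peaks and GR-con libraries 5 to 7.

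The GR palindrome was found at 3 of the 163 sites, or 1.84%, beside 1.01% of all sites. They were the *Itpr2* site that fell, the *Adra1a* intron site described above, whose −log10 p was higher in each GR-KO library, and a site 489 bp into *Itpr2* with adjusted p = 0.690. The GR half-site was found at 31.3% of the sites beside 30.6% of all, the NFI half-site at 33.1% beside 29.6%, the AP-1 motif at 11.7% beside 11.4% and the LIM-homeobox motif at 8.59% beside 11.1%. A match of letters does not show that the factor was bound.

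Beyond the 7 genes, 75 further genes of the same pathways had 1776 sites, of which 21 passed by −log10 p, 11 lower and 10 higher in GR-KO, or 1.18% beside 1.6% of all sites. By fold 1 passed, or 0.0563% beside 0.188%. With 0 to 5 called sites per list, the direction of a list's calls was not tested against that of other lists. Among the other adrenergic receptors, 2 of 55 sites passed by −log10 p, both lower in GR-KO, or 3.64% beside 0.835% of all sites lower and 1.6% called in either direction, and 0 passed by fold. The site 53.6 kb past the start of *Adra1d*, the third α1 receptor gene, had −log10 p values of 346, 372 and 267 in GR-con and 202, 189 and 149 in GR-KO (adjusted p = 0.00218), and that 42.5 kb past the start of *Adra2c* had 386, 313 and 284 against 204, 204 and 159 (adjusted p = 0.00464). Both lay outside the gene. The conditions did not overlap at either by −log10 p, but by fold they did, at 10.9, 11.2 and 9.38 in GR-con and 10.03, 9.79 and 8.37 in GR-KO for *Adra1d* (adjusted p = 0.733) and at 27.9, 26.1 and 22.6 against 23.4, 24.1 and 21.5 for *Adra2c* (adjusted p = 0.432).

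Of 377 sites of Gq and phospholipase C genes, 5 passed by −log10 p in limma, all of them lower in GR-KO, or 1.33% beside 0.835% of all sites lower and 1.6% called in either direction, and 0 passed by fold. They lay at *Gnaq*, *Plcb1* (2 sites), *Plcb4* and *Plce1*. A site 14.2 kb upstream of *Gnaq*, the Gq α subunit, had −log10 p values of 142, 138 and 93.4 in GR-con and 10.7, 26.4 and 29.97 in GR-KO (adjusted p = 0.000259). One 20.2 kb upstream of *Plce1* had 291, 267 and 272 against 135, 122 and 126 (adjusted p = 6.5e-05). At both, each GR-KO library was below each GR-con library.

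By −log10 p the remaining lists had 0 to 2.17% of their sites called, beside 1.6% of all sites. Purinergic and adenosine receptors had 1 of 173 sites called (0.578%), higher, 56.9 kb past the start of *P2ry6* and outside that gene. Its −log10 p was 7.90, 16.2 and 14.9 in GR-con and 68.7, 68.7 and 76.3 in GR-KO (adjusted p = 0.00022 from limma). The endothelin system had 1 of 100, higher, at *Ece2*. Calcium release and uptake of the endoplasmic reticulum had 1 lower and 2 higher of 271, at *Itpr1* (1 each way) and *Orai2*, and plasma membrane calcium transport 1 lower and 3 higher of 184. The Gi, Gs and cyclic AMP list had 2 lower and 3 higher of 442, and regulators of G-protein signalling had none of 174. The only site past the threshold on both measures lies in *Pde4d*, a cyclic AMP phosphodiesterase gene, with folds of 10.6, 11.9 and 9.47 in GR-con and 19.1, 20.0 and 17.0 in GR-KO (adjusted p = 0.0289 by fold and 0.00157 by −log10 p). By fold the call was lost without any 1 of the 6 libraries (adjusted p = 0.0733 to 0.197) and with the replicate number as a block (0.16).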

How the data were processed

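The authors ran the reads through the ENCODE ATAC-seq pipeline, and deposited 1 peak list per library on mm10, the build given in the submitters' processing notes. The methods give its parameters as default, and the reporting summary lists settings for adapter detection, multimapping and a p threshold of 0.01. For each peak the deposited lists give a capped score (used here only to check the format), the fold enrichment, which is a ratio of summit pileup to local background, and −log10 of a p-value and a q-value. The lowest deposited −log10 p was 2.0, a p of 0.01. No read counts were used, so depth is unknown, and the authors' DiffBind and edgeR comparison was not repeated.

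Sites of 401 bp were set on summits in order of within-list rank, without overlap, and kept with a summit in at least 2 libraries. This departs from assigning a peak by its overlap, because several listed peaks share 1 interval. Ranks were turned into normal scores, with an absent peak at the lowest rank, and the conditions were compared by limma 3.58.1 under R 4.3.3 (two-sided, variance trend, Benjamini-Hochberg over all 160877 sites). Gene positions are from GENCODE M21. Python 3.11.15, pandas 2.3.3, numpy 2.4.6, scipy 1.17.1 and matplotlib 3.10.9 were used. Tested on simulated scores for GR-KO against GR-con, with 200 of 160877 sites shifted by 1.5, limma called 161 shifted and 6 other sites by fold and 174 and 12 by −log10 p at the mean spread, and 98 and 2, and 109 and 3, with the observed spreads shuffled. A shift of 1.5 is larger than the differences at the 3 called sites, which were 0.35, 0.47 and -0.45 by −log10 p. No smaller shift was simulated, so the recovery does not describe differences of that size. The p-values measure the spread between pooled libraries.

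The genes, gene lists and motifs were chosen with earlier results of these data known. For each gene the text names the promoter site of highest rank, the site of smallest p by each measure, the site of highest mean fold, each site with a peak in every library of 1 condition and none of the other, and each site past an adjusted p of 0.05. Of other pathway genes only called sites are named. The *Ednrb* summit 66293 bp from the start and the *Itpr2* motif site 489 bp from the start were chosen after their values were seen. Alternatives were lists cut to equal length or to a q-value under 0.01, 2 other ways to assign peaks, a stricter presence filter (3 or all 6 libraries), no variance trend, a replicate block, ranking the summit pileup solved from fold and −log10 p, leaving out each library, and distances of 10 kb or the gene body only.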

Additional observations from a re-analysis of the deposited data

How the results depend on the processing

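Of the counts at the 7 loci, the number of sites called by −log10 p was 3 in the reported setting, with or without a q-value limit of 0.01 or equal list lengths, and 1 to 3 without single libraries (1 without GR-con 1 and 1 without GR-con 2). It was 0 when a peak had to cover more than 200 bp of the site, 1 when an overlap of 1 bp was enough, 5 among the 107 sites present in all 6 libraries, and 5 with the summit pileup ranked, among them the *Adrb1* exon site and the *Itpr2* site 148541 bp from the start. Without the variance trend all 3 calls by −log10 p were lost (adjusted p = 0.183 at *Adra1b*, 0.0742 at *Ednrb* and 0.149 at *Itpr2*), and the 4 sites called were those with a peak in 1 condition, whose absent arm has no spread of its own. By fold the count of 0 became 1 with the 200 bp rule, 1 with sites in at least 3 libraries, 2 without the variance trend (1844 of all sites) and 5 with the pileup (2306 of all sites). Without any single library it stayed at 0, while the count over all sites dropped from 302 to between 0 and 3. By −log10 p the count over all sites, 2566, was 380 to 1196 without single libraries, each of which moved it by more than 1.5 times, 786 with the 200 bp rule (697 by fold) and 1054 with 1 bp. Sites with a peak in 1 condition numbered 4, but 2 with the 200 bp rule and 4 to 7 without single libraries (7 without GR-KO 2), and the sites tested numbered 100 in the gene bodies only. No count of sites in 1 condition was taken for sites present in all 6 libraries, where it is 0 by construction.

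With the replicate number as a block, sites called over all sites numbered 0 by fold and 1209 by −log10 p, and 2 at the 7 loci, where the *Adra1b* site had adjusted p = 0.0597. Deviations of libraries with the same number had correlations of -0.0048 to 0.0295 by fold, beside -0.032 to 0.0075 for other pairs. All were small, but 3 libraries per condition do not settle whether the numbers pair them.

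Directions turned as follows. By fold the *Ednrb* site 65606 bp from the start was -0.128 with the 200 bp rule and -0.123 with 1 bp. With 1 bp, the *Adrb1* exon site was -0.679 by fold and -0.668 by −log10 p and the *P2ry1* site 41.1 kb downstream -0.258 and -0.0176. With the pileup ranked, the *P2ry1* site of smallest p by fold was 0.0241 and the *Itpr2* promoter -0.0125, and without single libraries that *P2ry1* site ran from -0.0935 to 0.0361 by −log10 p. The difference in peaks per locus at *Adra1a*, -1.0, was 0.667 with equal lists and 1.0 within 10 kb or the gene, and -2.67 to 0.333 without single libraries. At *Adra2a* it was -0.667 with the q-value limit and -0.333 to 2.67 without single libraries, at *Itpr2* 1.33 with equal lists, at *P2ry1* 1.67 with the q-value limit or within 10 kb and 0.333 in the gene instead of 2.33, and at *Ednrb* -0.667 within 10 kb, -3.0 in the gene and -1.17 to 2.83 without single libraries. The cause of these turns was not tested. Of the pathway sites given with values, those at *P2ry6* and *Plce1* passed by −log10 p in 15 of 15 alternatives, *Gnaq* in 11, *Adra1d* in 10 and *Adra2c* in 9, and *Pde4d* passed in 13 by −log10 p and in 8 by fold.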
